A study of Mus musculus with 6 samples.

Results

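The pro-survival BCL2 family was followed in antigen-specific germinal center (GC) B cells of mice with and without the receptor for the cytokine IL-21. Its 7 genes were chosen by name among the 27179 genes of the count table: Mcl1, Bcl2l1 (which encodes BCL-XL), Bcl2, Bcl2l2 (BCL-W) and Bcl2a1a, Bcl2a1b and Bcl2a1d, the copies of the mouse gene for BFL1, also called A1. All 7 had counts in every library and all 7 passed the limit on low expression that left 11005 genes for testing. The cells were GC B cells that bound the hapten NP and carried IgG1, sorted from spleens of C57BL/6 mice on days 7, 10 and 14 after immunization with NP coupled to keyhole limpet hemocyanin in alum. They came from WT mice or from Il21r-/- mice, with 1 RNA-seq library for each genotype on each day and hence 3 libraries of each genotype. All groups shared the C57BL/6 background and the immunization, and the labels give no age. After magnetic enrichment for IgG1, the sort took cells positive for B220, NP binding and IgG1 and negative for CD38, CD138, IgM, IgD and Gr1. The sources differ on the animals behind a library: the series' design text gives 1 mouse per sample, the methods several mice per genotype from repeated immunizations, and the day 7 sort is described with 3 mice of each genotype. By the methods, mice in all experiments but a thymidine analog time course were irradiated Ly5.1 hosts that had received WT or Il21r-/- bone marrow. The deletion is then borne by the B cells and by other cells grown from the marrow, T cells among them, while radioresistant host cells keep the receptor.

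Mitochondrial apoptosis is decided by interactions within the BCL2 family. The effectors BAX and BAK permeabilize the outer mitochondrial membrane, BH3-only proteins such as BIM, PUMA and NOXA are induced by stress and growth factor loss, and the pro-survival proteins bind both kinds and hold them in check. GC B cells are known for a high rate of apoptosis, for low BCL2 and for a strong need of MCL1, and they are kept alive by signals through the B cell receptor and CD40, which induce BCL-XL and A1 through NF-κB. IL-21 is a cytokine made by follicular helper T cells that acts on GC B cells mainly through STAT3.

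The reads counted on genes numbered between 21353438 and 27435124 per library. Il21r itself, which checks the labels, was at 346, 263 and 247 CPM (read counts scaled to library size) in WT and at 106, 128 and 113 CPM in Il21r-/- on days 7, 10 and 14. Its log2 fold change over the 3 days was -1.29 (SE 0.13, adjusted p = 0.00137), so reads from the targeted gene were reduced but not lost in the libraries labelled Il21r-/-. The sorted identity was also checked: summed over 10 GC B cell markers, among them Bcl6, Fas and S1pr2, the libraries had 7863 to 10100 CPM, and Cd3e, which defines T cells, did not exceed 0.094 CPM. Over the 3 days 0 of the 10 GC markers were differentially expressed (DE, an adjusted p below 0.05) by edgeR or DESeq2, and 3 had an unadjusted p below 0.05. Among the 11005 genes tested, 2356 had an unadjusted p below 0.05. When day was fitted as a block, 3 of the 10 GC markers were DE and higher and 2 DE and lower.

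The A1 copies require a word on sequence before their values. Bcl2a1a (Entrez 12044) lies at chr9:88956920-88962416 on the plus strand of GRCm38, Bcl2a1b (12045) at chr9:89199273-89207838 on the plus strand and Bcl2a1d (12047) at chr9:88723288-88731850 on the minus strand. Their annotated coding sequences are 519 bases long each and differ at 12 positions, all substitutions. The first 300 coding bases from the start codon, all from the first coding exon, are shown in the GRCm38 annotation because they hold 7 of the 12 differing positions, which together with those in the untranslated ends let a read be told apart. Capitals mark the positions that are not the same in all 3 copies.
Bcl2a1a: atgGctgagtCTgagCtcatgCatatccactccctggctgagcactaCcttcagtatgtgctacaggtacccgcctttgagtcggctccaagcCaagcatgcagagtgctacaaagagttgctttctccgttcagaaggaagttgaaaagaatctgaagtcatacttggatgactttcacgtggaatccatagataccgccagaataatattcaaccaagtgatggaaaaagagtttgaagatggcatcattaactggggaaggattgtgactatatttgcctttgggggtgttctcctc
Bcl2a1b: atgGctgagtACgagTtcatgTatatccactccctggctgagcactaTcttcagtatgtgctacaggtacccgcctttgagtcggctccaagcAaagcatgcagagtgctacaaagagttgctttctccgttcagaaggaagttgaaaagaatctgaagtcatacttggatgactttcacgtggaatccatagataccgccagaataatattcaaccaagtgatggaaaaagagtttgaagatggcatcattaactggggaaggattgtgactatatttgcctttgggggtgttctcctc
Bcl2a1d: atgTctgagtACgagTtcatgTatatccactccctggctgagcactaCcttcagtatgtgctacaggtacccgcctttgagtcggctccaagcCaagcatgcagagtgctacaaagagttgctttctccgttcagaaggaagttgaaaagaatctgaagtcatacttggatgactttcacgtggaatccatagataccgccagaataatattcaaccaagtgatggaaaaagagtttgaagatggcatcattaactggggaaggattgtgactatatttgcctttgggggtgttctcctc
Of the 100-base windows along their transcripts, the read length used, only 56.5% in Bcl2a1a, 43.2% in Bcl2a1b and 45.3% in Bcl2a1d occur in no other gene. The rest are shared with another copy or with Gm29094, an annotated readthrough gene that overlaps Bcl2a1b. How the counting treated reads that match several genes is not known, so the split among the copies is uncertain and their summed counts are given as well. For Mcl1, Bcl2l1 and Bcl2 all such windows were unique, and for Bcl2l2 89.1% were, the rest being shared with the readthrough gene Gm20521. The library kit does not mark strand, so reads of Bcl2 and its antisense gene D630008O14Rik, of Bcl2l1 and Cox4i2, and of Bcl2a1d and its antisense gene Gm10634 cannot be told apart where they overlap.

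Over the 3 days, the 3 A1 copies, Bcl2l1 and Bcl2 were higher in Il21r-/- GC B cells, by 1.98- to 3.15-fold, while Mcl1, the most abundant transcript of the family in reads, did not pass the test. Bcl2l2, of which little was present, did not pass it either. Thus 5 of the 7 genes were DE, all 5 higher in Il21r-/-, whereas 5.92% of all genes tested were DE, 4.52% were DE and higher in Il21r-/- and 1.40% were DE and lower. The median log2 fold change was 1.0 over the 7 genes and 0.01 over all genes tested. The 3 A1 copies can share reads, so they are not independent entries in this count or in this median. The 7 genes were chosen with earlier results of these data known.

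Mcl1, whose protein is short-lived and is required by GC B cells, lies at chr3:95656944-95663179 on the plus strand (Entrez 17210, GRCm38 as for all genes here). It stood at 594, 513 and 490 CPM in WT and at 596, 537 and 536 CPM in Il21r-/- on days 7, 10 and 14, from 10471 to 16205 reads per library. The levels of the genotypes overlapped, and in both genotypes the day 7 library was the highest. The log2 fold change over the 3 days was 0.07 (SE 0.10, 95% interval -0.15 to 0.29, adjusted p = 0.748), and the upper bound lay below the log2 fold change of each of the 5 DE members. Mcl1 was the only one of the 7 genes whose WT and Il21r-/- libraries overlapped. Among all genes tested, every Il21r-/- library lay above every WT library for 10.0%.

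Bcl2l1, which encodes BCL-XL and is induced by CD40 and antigen receptor signals, lies at chr2:152758732-152833803 on the minus strand (Entrez 12048). Its levels were 22.9, 19.8 and 18.7 CPM in WT and 31.2, 47.1 and 43.6 CPM in Il21r-/-. All 3 Il21r-/- libraries were above all WT libraries, and the gap was narrowest on day 7. The log2 fold change over the 3 days was 0.98 (SE 0.17, 1.98-fold, adjusted p = 0.0123).

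Bcl2, the founding member, which naive and memory B cells express and GC B cells repress, lies at chr1:106538176-106714290 on the minus strand (Entrez 12043). It was at 3.04, 0.813 and 1.03 CPM in WT, that is 83, 20 and 22 reads. In Il21r-/- it was at 6.11, 4.8 and 3.73 CPM, or 140, 126 and 93 reads. The genotypes did not overlap, and the highest WT library, that of day 7, was close to the lowest Il21r-/- library, that of day 14. The log2 fold change over the 3 days was 1.66 (SE 0.33, 3.15-fold, adjusted p = 0.022), the largest of the family and the one with the largest error.

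The A1 copies encode a short-lived protein that is induced by NF-κB. Bcl2a1b had 126, 80.7 and 113 CPM in WT and 202, 207 and 295 CPM in Il21r-/- on days 7, 10 and 14. Bcl2a1d had 68.5, 48.5 and 70.2 CPM in WT and 104, 112 and 166 CPM in Il21r-/-. Bcl2a1a had 26.4, 17.8 and 27.3 CPM in WT and 43.9, 46.7 and 73.8 CPM in Il21r-/-. For each copy the lowest library was that of WT on day 10 and the highest that of Il21r-/- on day 14, with no overlap between genotypes. Over the 3 days the log2 fold change was 1.17 for Bcl2a1a (SE 0.19, adjusted p = 0.0117), 1.12 for Bcl2a1b (SE 0.19, adjusted p = 0.0118) and 1.0 for Bcl2a1d (SE 0.17, adjusted p = 0.0126). With the reads of the copies summed, the level was 193 ± 39.9 CPM in WT and 416 ± 103 CPM in Il21r-/- (mean ± SD, n = 3 libraries on different days), and the log2 fold change was 1.09 (SE 0.18). This sum does not depend on how reads were split among the copies. It would still lack shared reads that were left out of the counting or counted for Gm29094. The copies kept nearly fixed shares of it: across the 6 libraries Bcl2a1b held 53.6 to 57.6%, Bcl2a1d 29.8 to 33.4% and Bcl2a1a 11.9 to 13.8%.

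Bcl2l2, which encodes BCL-W, lies at chr14:54883366-54890858 on the plus strand (Entrez 12050). It had 2.82, 2.52 and 2.72 CPM in WT and 3.10, 4.0 and 2.89 CPM in Il21r-/-, from 58 to 105 reads per library. The Il21r-/- libraries were above the WT libraries by a small margin on days 7 and 14, and the day 10 library of Il21r-/- was the highest. The log2 fold change over the 3 days was 0.31 (SE 0.21, 95% interval -0.16 to 0.79, adjusted p = 0.437), an interval that holds both 0 and the value of Mcl1.

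**Figure D1:**
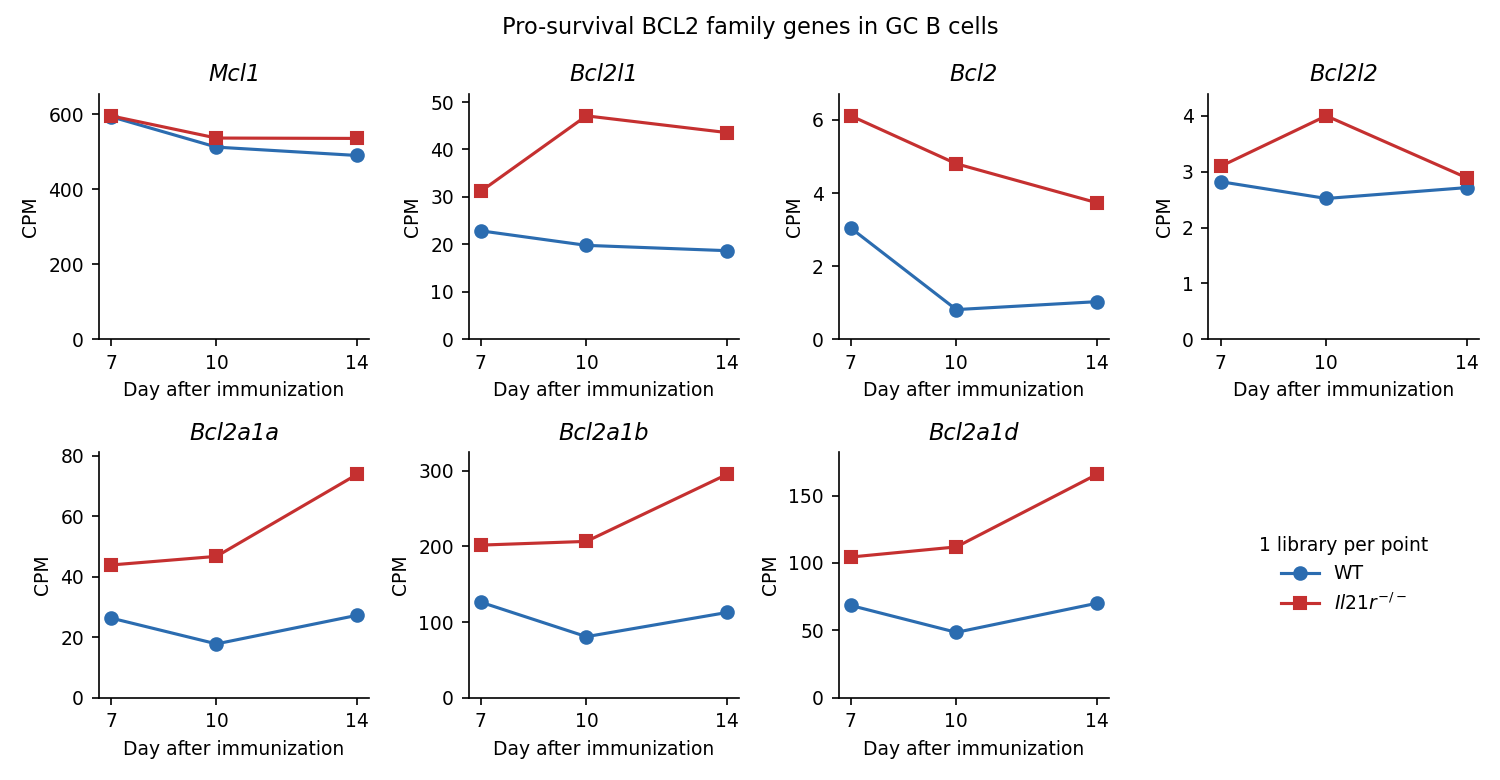
Level of each of the 7 genes in CPM (y axes, from 0, scaled per gene) against the day after immunization (x axes) in WT (blue circles) and Il21r-/- (red squares), 1 library per point. The lines lie apart for every gene but Mcl1, which is at 490 to 596 CPM in all 6 libraries, and the gap for Bcl2l1 is wider on days 10 and 14 than on day 7.

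The calls depended on single libraries when day was fitted as a straight line. Without the WT library of day 14, 0 of the 7 genes were DE, with adjusted p-values of 0.126 to 0.152 for the 5 genes and log2 fold changes from 0.84 to 1.68. Without the Il21r-/- library of day 7 or that of day 14, 3 were DE, and Bcl2 (adjusted p = 0.0655 and 0.0675) and Bcl2a1d (0.0519 and 0.0558) were not. Without the Il21r-/- library of day 10, 4 were DE, and Bcl2a1b was not (adjusted p = 0.0755). In the fit that paired libraries by taking each day as a block, the same 5 genes were DE. Leaving out any 1 library from that fit, a check chosen after seeing the data, left all 5 DE. There the remaining library of the same day no longer informs the genotype effect, so the check rests on the pairs of the other days. It is therefore not comparable with leaving out a library from the fit with a straight line. In the block fit with no library left out, 22.9% of all genes were DE, 13.6% being higher and 9.33% lower in Il21r-/-, against the shares of 5.92%, 4.52% and 1.40% above.

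To ask when the difference was present, the genotypes were compared on each day, with 1 library of each and an error taken from the scatter of all 6 libraries. On day 7 0 of the 7 genes were DE, where 1.07% of all genes were. The log2 fold changes were all above 0 and ran from 0.01 for Mcl1 to 1.0 for Bcl2. Bcl2a1a and Bcl2a1b, copies that can share reads, had unadjusted p-values below the threshold of 0.05. They were among 606 such genes of the 11005 tested. Bcl2a1a, at a log2 fold change of 0.74, was DE on day 7 when the dispersions came from the fit with day as a block (adjusted p = 0.0353). On day 10 5 of the 7 genes were DE against 3.10% of all genes. The day 10 log2 fold changes were 2.55 for Bcl2 (adjusted p = 0.00309), 1.25 for Bcl2l1 (adjusted p = 0.00585), 1.39 for Bcl2a1a, 1.36 for Bcl2a1b and 1.20 for Bcl2a1d. On day 14 4 of the 7 were DE against 3.28% of all genes. These were Bcl2l1 (log2 fold change 1.22, adjusted p = 0.00857) and the A1 copies, at 1.44 for Bcl2a1a, 1.39 for Bcl2a1b and 1.24 for Bcl2a1d. Bcl2 had a log2 fold change of 1.85 on day 14 and was not DE (adjusted p = 0.0708). It was DE on that day with dispersions from the fit with day as a block (adjusted p = 0.00318), and when the WT library of day 7 (0.00536), the WT library of day 10 (0.00831) or the Il21r-/- library of day 10 (0.0355) was left out of the dispersion estimate. The days share the dispersion estimate, so their tests are not independent of each other.

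**Figure D2:**
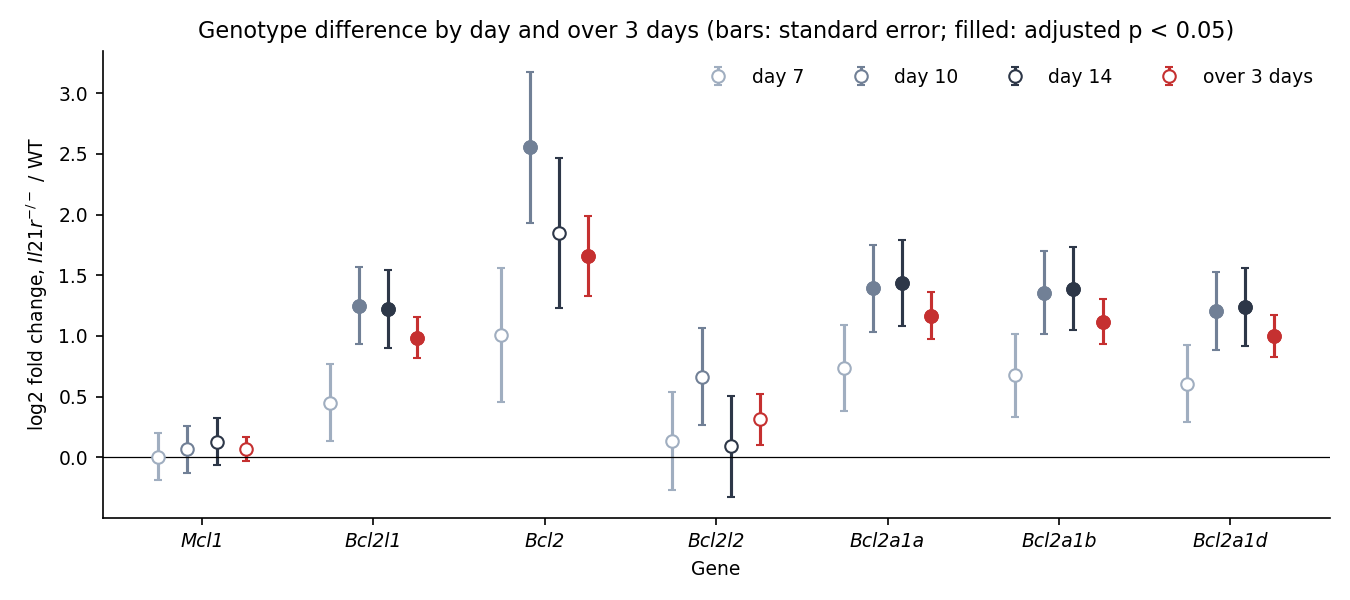
Log2 fold change, Il21r-/- over WT (y axis), of each of the 7 genes (x axis) on days 7, 10 and 14 and over the 3 days. Bars are standard errors and filled points have an adjusted p below 0.05. No day 7 point is filled, and the points of Bcl2l1 and the A1 copies on days 10 and 14 lie at 1.20 to 1.44.

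The day 7 effects were smaller than the later ones for the 5 genes, but the difference was not established. Summed A1 reads gave an Il21r-/- to WT ratio of 1.58 on day 7, 2.48 on day 10 and 2.54 on day 14. For Bcl2l1 the ratio of CPM was 1.37, 2.38 and 2.33, and for Bcl2 it was 2.01, 5.90 and 3.62. A test of whether the linear trend over days differed by genotype called 0 of the 7 genes and 0% of all genes in the edgeR quasi-likelihood fit, and 118 genes but 0 of the 7 had an unadjusted p below 0.05. For the A1 copies that difference was 0.09 to 0.10 log2 units per day (adjusted p = 1 for each). For Bcl2l1 it was 0.10 log2 units per day (SE 0.05, 95% interval -0.02 to 0.23, adjusted p = 1).

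Within each genotype the members took different courses over time, given here as ratios of single libraries. In WT, summed A1 was at 0.666 of its day 7 level on day 10 and at 0.951 on day 14. In Il21r-/- it was at 1.04 on day 10 and 1.53 on day 14. Bcl2l1 on day 14 was at 0.817 of its day 7 level in WT and at 1.40 in Il21r-/-. Bcl2 on day 14 was at 0.339 of its day 7 level in WT and at 0.611 in Il21r-/-, so it was lower on the later day in both genotypes. The common linear day trend was DE for 0 of the 7 genes, where 4.43% of all genes tested were DE. Bcl2 had the steepest slope, -0.16 log2 units per day (SE 0.06, adjusted p = 0.141).

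Levels were compared between genes per kilobase of the counted gene length. The mean over the 6 libraries was 223 CPM per kb for Bcl2a1b, 156 for Mcl1, 119 for Bcl2a1d, 49.4 for Bcl2a1a, 12.9 for Bcl2l1, 0.869 for Bcl2l2 and 0.42 for Bcl2. In WT the mean was higher for Mcl1 (152.6) than for Bcl2a1b (139.5), and in Il21r-/- it was lower (159.5 and 306.8). Among the 11005 genes tested Bcl2a1b stood at the 95.4th percentile of the level over all 6 libraries and Mcl1 at the 93.5th, whereas Bcl2 stood at the 2.97th. The ranges of Bcl2a1b and Mcl1 over the libraries overlapped (106 to 386 and 141 to 171 CPM per kb), as did those of Mcl1 and Bcl2a1d, those of Bcl2a1d and Bcl2a1a, and those of Bcl2l2 and Bcl2 (0.728 to 1.16 and 0.105 to 0.788). Summed over the 7 genes, the level was 345 to 465 CPM per kb in WT and 636 to 860 in Il21r-/-. The A1 copies made up 54.8 to 64.4% of that sum in WT and 70.8 to 79.9% in Il21r-/-. The share of Mcl1 was 33.5 to 42.6% in WT and 17.9 to 26.9% in Il21r-/-. If reads that match several genes were left out, the A1 level and share are too low and the share of Mcl1 is too high. These shares describe reads and not protein.

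**Figure D3:**
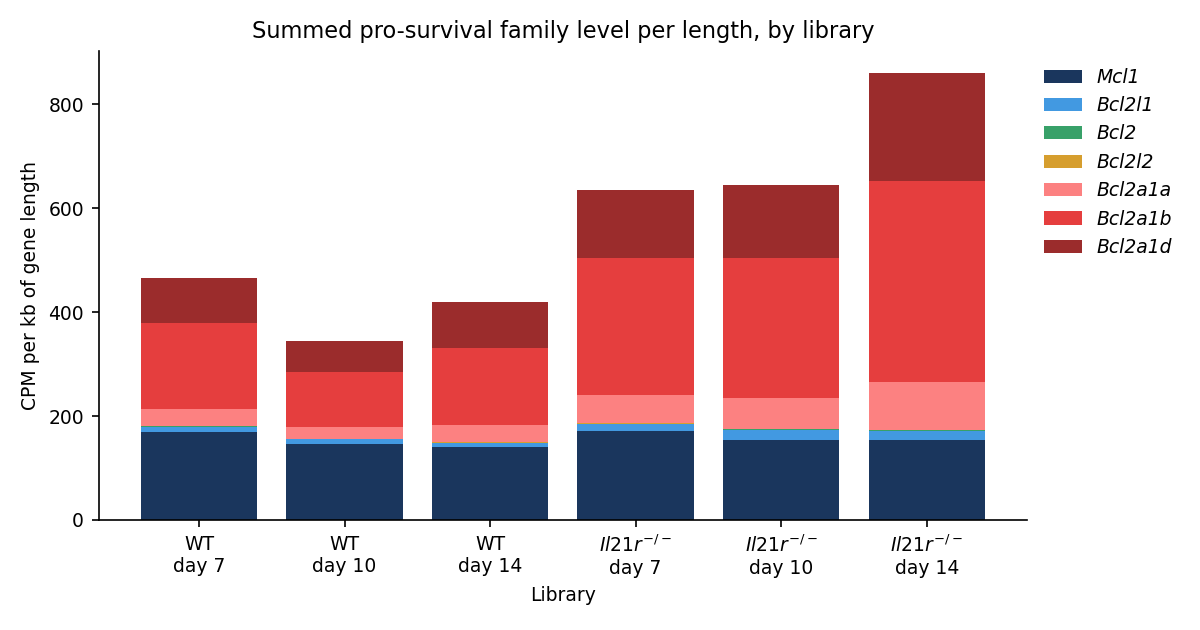
Summed level of the 7 genes in CPM per kb of gene length (y axis, from 0) in each library (x axis), stacked by gene. The sum is 345 to 465 in WT and 636 to 860 in Il21r-/-, the Mcl1 segment has a similar height in all 6 bars, and the A1 segments are taller in Il21r-/-.

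How closely the A1 copies moved together is uncertain, since they can share reads. Their promoters are shown as a description of sequence. Each is a window of 300 bases that ends shortly after the annotated start in RefSeq (GRCm38.p6), at chr9:88956670-88956969 (plus) for Bcl2a1a, chr9:89199023-89199322 (plus) for Bcl2a1b and chr9:88731801-88732100 (minus) for Bcl2a1d. Capitals mark the bases that differ within the stretch shared by the 3 windows.
Bcl2a1a: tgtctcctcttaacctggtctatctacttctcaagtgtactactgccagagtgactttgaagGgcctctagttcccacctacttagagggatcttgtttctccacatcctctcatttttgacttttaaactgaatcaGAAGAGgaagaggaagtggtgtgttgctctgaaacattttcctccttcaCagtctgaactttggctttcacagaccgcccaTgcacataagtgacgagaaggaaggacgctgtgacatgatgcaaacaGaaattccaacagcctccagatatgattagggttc
Bcl2a1b: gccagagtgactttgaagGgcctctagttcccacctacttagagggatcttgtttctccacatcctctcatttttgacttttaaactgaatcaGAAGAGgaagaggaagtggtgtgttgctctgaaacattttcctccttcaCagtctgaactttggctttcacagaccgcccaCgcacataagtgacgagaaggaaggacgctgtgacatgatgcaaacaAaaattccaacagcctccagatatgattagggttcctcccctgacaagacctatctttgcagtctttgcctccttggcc
Bcl2a1d: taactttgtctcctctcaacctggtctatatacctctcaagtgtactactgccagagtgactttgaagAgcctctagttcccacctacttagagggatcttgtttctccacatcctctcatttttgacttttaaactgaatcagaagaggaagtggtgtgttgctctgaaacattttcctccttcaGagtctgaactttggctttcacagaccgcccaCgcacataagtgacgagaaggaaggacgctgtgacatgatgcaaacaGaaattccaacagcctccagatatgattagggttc
In the 256 aligned positions 10 were not shared by all copies, 4 of them substitutions and the rest a short insertion present in Bcl2a1a and Bcl2a1b. Pairs of windows were 96.0 to 99.2% identical. The NF-κB consensus and TTCNNNGAA, the letters of a STAT site, were searched on both strands of the 9 windows of the 7 genes. The NF-κB consensus occurred in 1 window, at -242 from 1 of the Bcl2l1 starts (chr2:152830668-152830967, minus), and TTCNNNGAA in none. Among all 32851 promoter windows 8.46% held the former and 8.30% the latter. A match is a description of letters, and a missing match says only that they are not in this window.

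**Figure D4:**
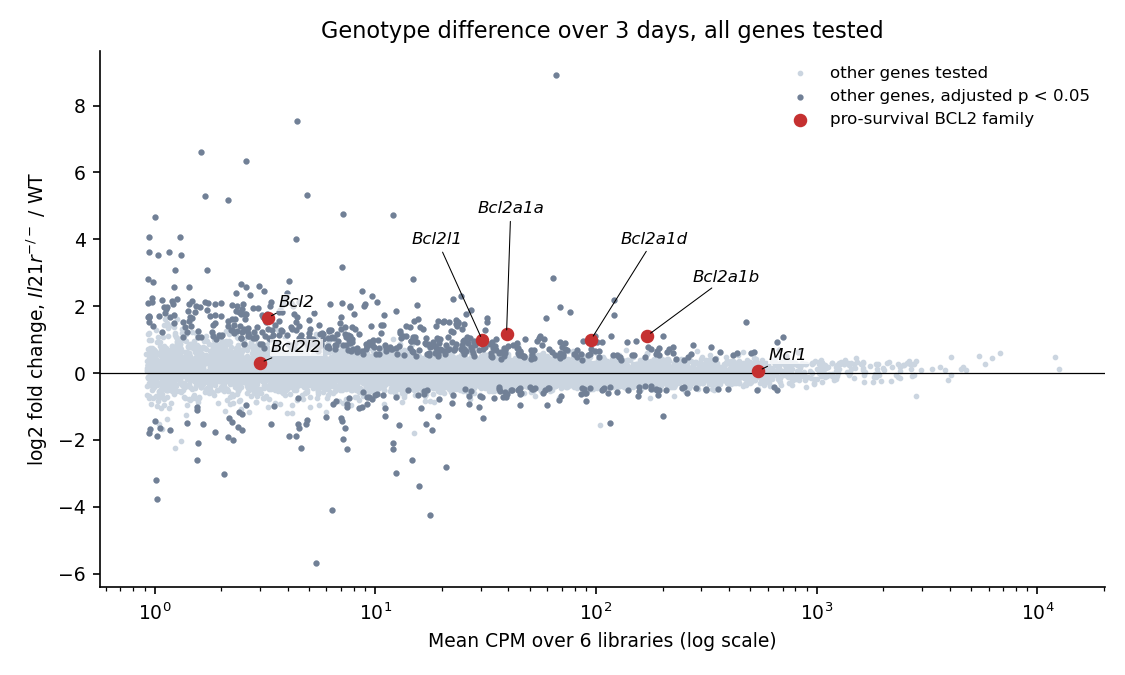
Log2 fold change over the 3 days, Il21r-/- over WT (y axis), against the mean CPM over the 6 libraries (x axis, log scale) for the 11005 genes tested. Red points are the 7 family genes and dark grey points are other DE genes. Mcl1 lies at 0.07 among the abundant genes and the A1 copies and Bcl2l1 lie between 0.98 and 1.17.

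The pro-apoptotic partners of these genes were read over the 3 days against the 5.92% of all genes that were DE and the 22.9% that were with day as a block. An unadjusted p below 0.05 over the 3 days was found for 2356 of the 11005 genes tested. Of 3 effectors Bax and Bak1 were tested and 0 were DE by edgeR or DESeq2, with 1 at an unadjusted p below 0.05. Of 8 BH3-only genes 6 were tested, 1 was DE and higher in Il21r-/-, and 1 was DE and lower. Bcl2l11, which encodes BIM, was lower: it had 47.1, 36.0 and 28.4 CPM in WT and 23.0, 24.5 and 20.4 CPM in Il21r-/-, a log2 fold change of -0.69 (SE 0.13, adjusted p = 0.0195). Bmf, whose product binds pro-survival proteins upon detachment or stress, was higher, with 83.5, 44.0 and 39.5 CPM in WT and 106, 96.0 and 65.6 CPM in Il21r-/- (log2 fold change 0.72, SE 0.15, adjusted p = 0.0273). Its WT and Il21r-/- ranges overlapped. Bbc3 (PUMA) had a log2 fold change of 0.52 and Pmaip1 (NOXA, which binds MCL1 and A1) one of -0.44, and neither was DE (adjusted p = 0.135 and 0.0987). With day as a block both were (adjusted p = 0.0136 and 0.0128), as was Bak1, which was lower (log2 fold change in that fit -0.21, adjusted p = 0.0462). The block thus called 5 of the 8 tested effectors and BH3-only genes.

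The steps downstream and the inputs were described by the same count, against the same values over all genes. Of 8 genes of the apoptosome, caspases and their inhibitors, all 8 were tested and 0 were DE by edgeR, with or without day as a block, or by DESeq2. Of these, 1 had an unadjusted p below 0.05, and the median of their log2 fold changes was -0.08. Of 4 genes that act on MCL1 protein 3 were tested, and Fbxw7, which marks MCL1 and other proteins for degradation, was DE and higher in Il21r-/-. It had 18.9, 24.7 and 27.4 CPM in WT and 30.5, 55.6 and 42.2 CPM in Il21r-/- (log2 fold change 0.86, SE 0.19, adjusted p = 0.0328). Of 9 NF-κB subunits and inhibitors 0 were DE by edgeR and 2 by DESeq2, 3 had an unadjusted p below 0.05, and the median log2 fold change was 0.23. The share of all genes called by DESeq2 is not given here, so its 2 calls have no background beside them. With day as a block 4 of the 9 were DE and higher, where 13.6% of all genes were. In that fit these were Tnfaip3 (log2 fold change 0.70, adjusted p = 0.000545), Nfkbia (0.48, 0.00684), Nfkbie (0.32, 0.0107) and Nfkb2 (0.27, 0.0462). The first 3 encode inhibitors that NF-κB itself induces. Of 5 survival receptors 4 were tested and Cd40 was DE and higher, at 87.1, 98.5 and 106 CPM in WT and 121, 130 and 173 CPM in Il21r-/- (log2 fold change 0.53, SE 0.10, adjusted p = 0.0164). With day as a block Tnfrsf13b (TACI, adjusted p = 0.0384) and Il4ra (0.0211) were also DE and higher, which made 3 of the 4.

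**Figure D5:**
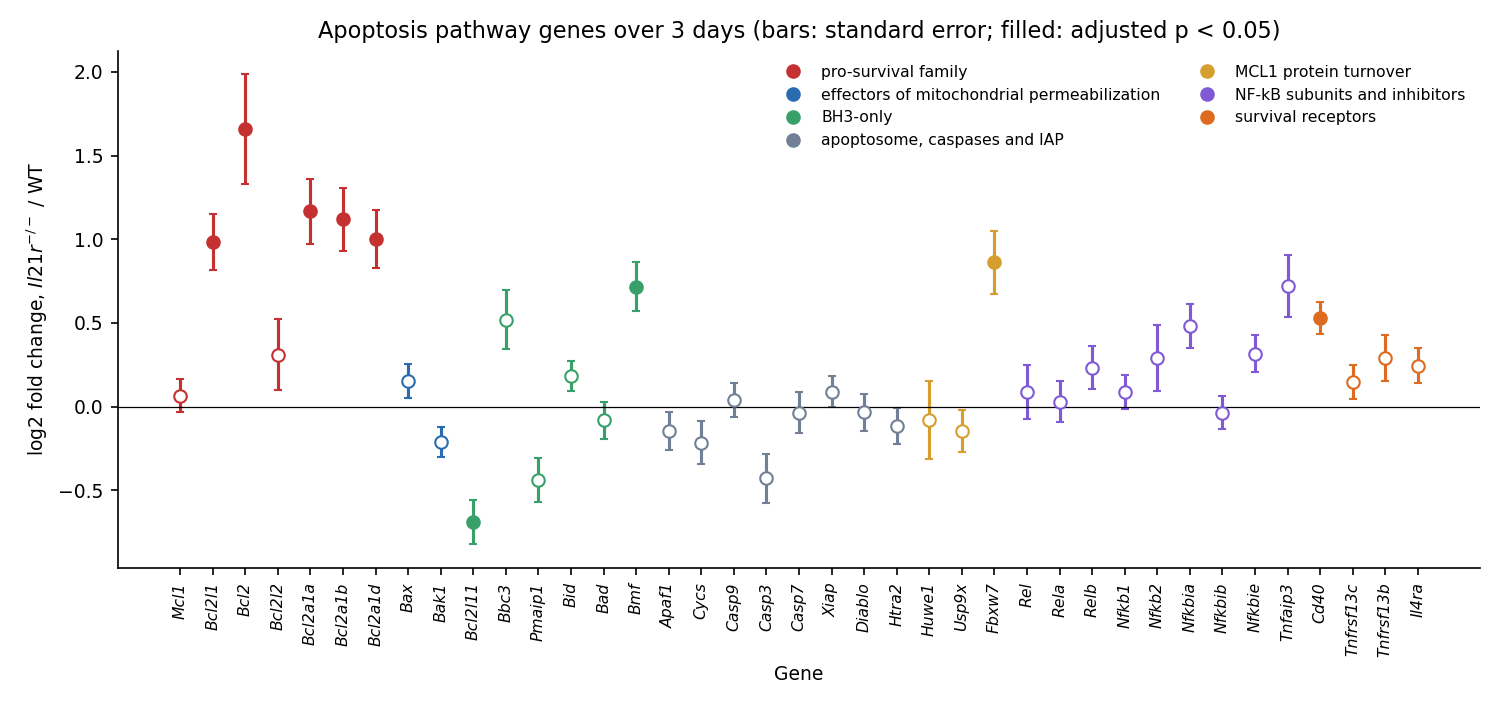
Log2 fold change over the 3 days, Il21r-/- over WT (y axis), of the 7 family genes and the tested genes of 6 pathway lists (x axis, colored by list). Bars are standard errors and filled points have an adjusted p below 0.05. Outside the family, Bmf, Fbxw7 and Cd40 are filled above 0 and Bcl2l11 is filled below 0.

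Markers of GC zones and of other cells moved with the genotype too. Over all genes 4.52% were DE and higher and 1.40% DE and lower, and with day as a block 13.6% and 9.33%. Without adjustment, 2356 of the 11005 genes had a p below 0.05 in the fit with a linear day term. In the light zone (LZ) GC B cells receive CD40 and antigen signals, and in the dark zone (DZ) they divide. Summed over 15 LZ markers the libraries had 1137 to 1437 CPM in WT and 1821 to 2011 CPM in Il21r-/-, and 5 of the 15 were DE, all higher (Cd83, Cd69, Cd40, Ebi3 and Gpr183). The block called 8 of them higher. Cd40 and Nfkbia stand in this list and in the lists above. The 12 DZ markers summed to 3599 to 3904 CPM in WT and 3125 to 3500 CPM in Il21r-/-, with 0 DE by edgeR, 3 by DESeq2 and 7 at an unadjusted p below 0.05. No share of all genes called by DESeq2 is given here, so its 3 calls cannot be set against one. With day as a block 7 were DE and lower. The 8 markers of non-GC B cells summed to 312 to 754 CPM in WT and 732 to 1197 CPM in Il21r-/-, with 5 DE and higher, among them Fcer2a, S1pr1, Klf2 and Ccr6. Most of the Il21r-/- sum came from Fcer2a, at 154 to 392 CPM in WT and 511 to 808 CPM in Il21r-/-. Cr2, at 122 to 273 CPM in WT and 148 to 213 CPM in Il21r-/-, was not DE (adjusted p = 0.672). Ighd, which defines naive B cells and whose product the sort excluded, was at 0.983 to 1.39 CPM in WT and 1.04 to 1.68 CPM in Il21r-/-. Naive and memory B cells express Bcl2, and the sort took only CD38-negative cells. Cd38 RNA was at 26.6, 5.98 and 2.30 CPM in WT on days 7, 10 and 14. In Il21r-/- it was at 21.3, 11.7 and 3.65 CPM. It was thus highest on day 7 in both genotypes, and on that day it was higher in WT. Cd38 was not DE over the 3 days (log2 fold change 0.36, SE 0.24, adjusted p = 0.448) or with day as a block (adjusted p = 0.451). The part of LZ and non-GC B cells in the difference of the 5 genes was not tested. In bulk samples a change in the number of cells that express a gene and a change in its RNA per cell cannot be told apart.

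Markers of other cell types had the following values. The 7 T cell markers summed to 86.4 to 122 CPM in WT and 81.7 to 117 CPM in Il21r-/-, nearly all of it from Lck, the only one above the expression limit, which was not DE (adjusted p = 0.382). The 8 myeloid markers summed to 8.42 to 14.2 CPM in WT and 12.2 to 19.9 CPM in Il21r-/-, and of the 4 tested Cd68 was DE and higher (log2 fold change 0.62, adjusted p = 0.0449). With day as a block Adgre1 was also DE and higher (log2 fold change in that fit 1.35, adjusted p = 0.00313). Ly6g and S100a8, which define neutrophils, did not exceed 0.586 CPM, and the sort took Gr1-negative cells. The erythroid markers in the table summed to at most 12.2 CPM, and the 2 tested were not DE by edgeR or DESeq2 nor at an unadjusted p below 0.05. Of 6 plasma cell markers, which summed to 2524 to 2739 CPM in WT and 2774 to 3621 CPM in Il21r-/-, Xbp1 was DE and higher, and Prdm1 was DE and lower at 1.39 to 1.83 CPM in WT and 0.262 to 0.683 CPM in Il21r-/-. In the block fit Irf4 (adjusted p = 0.0384) and Jchain (0.0171) were also DE and higher. Most of the sum came from Jchain, at 2283 to 2516 CPM in WT and 2462 to 3314 CPM in Il21r-/-. Sdc1, which fell below the expression limit, was at 0.733 to 0.854 CPM in WT and 0.361 to 0.495 CPM in Il21r-/-. The part of these cell types in the values of the family was not tested.

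The genes most like each member in log2 CPM over the 6 libraries were listed as a description. For Bcl2 these included Nmb (r = 0.996) and Fcgrt (0.994). For Bcl2l1 they were Birc3 (0.995), Ttll1 (0.993) and Zfp667 (0.989). For the summed A1 reads they were Zfp456 (0.994), Slc31a2 (0.991) and AU022252 (0.991). For Mcl1 they included Ppm1m (0.999) and Trp53inp1 (0.997), and for Bcl2l2 they were Dennd6b (0.988), Rhbdd1 (0.976) and Zfp937 (0.973). These genes were picked for the highest values among 11005 genes. With 6 libraries that share genotype and day, such values do not show a link between genes. Within the family the A1 copies, which can share reads, correlated with each other at 0.992 or more, and Bcl2l1 with their sum at 0.895, whereas Mcl1 and the sum had 0.297.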

How the data were processed

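Single-end RNA-seq reads of 6 libraries were aligned by the authors to mm10 with Rsubread, counted per gene by featureCounts with the RefSeq annotation built into it after technical replicates were pooled, and deposited as whole-number counts without normalization (CASAVA 1.8.2 per the labels). Strand and multi-mapping settings are not given in the sources used here. Library totals ran from 21353438 to 27435124 counts, and intervals cover the scatter of the libraries around the model. The 7 genes and all gene lists were chosen with earlier results of these data known. Symbols came from a RefSeq table of GRCm38.p6 for 25275 of 27179 identifiers.

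Genes were kept at an average log2 CPM of at least 0, without Xist, Ig variable genes and genes of the Y chromosome (137 found by name), and CPM used TMM-scaled library sizes. In edgeR 4.0.16 (R 4.3.3), genotype and a linear effect of day were fitted to the 6 libraries and tested with the quasi-likelihood test (3 residual degrees of freedom), and the effect on each day with the likelihood ratio test on dispersions from that model. The Benjamini-Hochberg adjustment ran over 11005 genes, with a threshold of 0.05. Log2 fold changes are Il21r-/- over WT. The day, which is also the replicate number, paired the libraries: after the genotype means were removed, the libraries of a day correlated across genes at r = 0.64, 0.413 and 0.645 on days 7, 10 and 14. Named genes were the 7 members, pathway genes that passed the threshold over the 3 days, and for each member the 3 genes with the highest correlation, some of which are not reported here. The pathway genes that passed only with day as a block, and single marker genes, were named after their values had been seen. Promoter windows came from RefSeq and coding sequences from the GENCODE annotation of GRCm38. The procedure was tested on simulated data. Alternatives were DESeq2's size factors and its Wald test (1.42.0), other filters and models, and leaving out each library.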

Additional observations from a re-analysis of the deposited data

How the results depend on the processing

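Over the 3 days, 651 genes were DE with a linear day term. The count was 2519 with day as a block (the pairing of libraries by day), 991 with all genes with any count, 1193 with the likelihood ratio test, 173 with no day term, 132 to 2165 with 1 library left out, and 2172, 1644 and 1015 without the WT library of day 7, 10 or 14 and 2149, 1645 and 1126 without that of Il21r-/-, both with day as a block, a fit chosen after seeing the data. Among the 7 genes 5 were DE; 3 were with no day term (Bcl2 and Bcl2a1d lost, adjusted p = 0.164 and 0.0525) and 0 to 5 with 1 library left out. The block changed no call among the 7 genes over the 3 days, and the other normalization, filters and tests kept 5.

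On day 7, 118 genes were DE, 303 with block dispersions and 104 to 220 with 1 library left out; of the 7 genes 0 were DE and 1 with block dispersions. On day 10, 341 genes were DE, 822 with block dispersions, 546 with a linear day term kept and 267 to 643 with 1 library left out. On day 14, 361 genes were DE, 1055 with block dispersions and 288 to 704 with 1 library left out, and Bcl2 became DE with a linear day term kept (log2 fold change 2.20, adjusted p = 0.00685). The day trend was DE for 488 genes, for 869 with any count and for 0 to 2177 with 1 library left out. Its difference between genotypes was DE for 0 genes and for up to 12 with 1 library left out.

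The sign turned for values near 0: Mcl1 on day 7 (-0.000898 with DESeq2's size factors and -0.00926 with any count). With 1 library left out it turned for the day trend (log2 units per day) of Bcl2l1 (-0.036 to 0.043), Bcl2l2 (-0.034 to 0.013) and Bcl2a1b (-0.014 to 0.091), and for the difference in trend of Bcl2 (-0.19 to 0.53), Mcl1 (-0.023 to 0.050), Bcl2a1a (-0.051 to 0.30), Bcl2a1b (-0.047 to 0.30), Bcl2a1d (-0.043 to 0.26) and Bcl2l2 (-0.11 to 0.12). The cause of these shifts was not tested. Counts of 20 to 22 reads of Bcl2 in WT on days 10 and 14 limit its fold change.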

Other observations

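Other BCL2-like and inhibitor of apoptosis genes, chosen after the values of the 7 genes had been seen, were read from the same fit. Birc2, which encodes the NF-κB regulator cIAP1, had 50.4 to 62.2 CPM in WT and 64.9 to 93.0 CPM in Il21r-/- (log2 fold change over the 3 days 0.45, SE 0.11, adjusted p = 0.0449). Birc3, its relative, had 65.6 to 70.4 CPM in WT and 75.2 to 87.4 CPM in Il21r-/- and did not pass the test (log2 fold change 0.29, SE 0.10, adjusted p = 0.147), but did with day as a block (adjusted p = 0.015). Bcl2l12, Bcl2l13 and Bcl2l14 had log2 fold changes of -0.24, -0.02 and -0.39, and none passed the test (adjusted p = 0.283, 0.936 and 0.426). Bcl2a1c, a further A1 copy, had 9 reads in the 6 libraries together, Bcl2l15 had 5 and Bcl2l10 had 0.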
